A study of Mus musculus with 24 samples.

Results

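The blood vessels of the mouse hippocampal slice were followed through 42 marker genes of brain endothelium, pericytes and vascular smooth muscle. The genes were taken from a list of known markers, chosen with earlier results of these data known. All 42 were present in both the RNA-seq table of 23845 genes and the ribosome footprint (RPF) table of 20436 genes. After the filter on low counts, 42 of 14516 genes tested in RNA were members, as were 40 of 12877 in RPF and 40 of 12785 in footprints per RNA (translational efficiency, TE). Sox17 and Tagln were the 2 members with too few footprints to be tested, with at most 13 and 15 footprint counts in any library.

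Slices came from male mice of 28 to 42 days, either wild-type (WT) or Tsc2+/-, and were exposed for 5 min to 100 µM dihydroxyphenylglycine (DHPG), which activates group I metabotropic glutamate receptors, or to artificial cerebrospinal fluid as vehicle. Each of the 4 groups had 3 RNA-seq and 3 RPF libraries, 24 in all, with an RNA and an RPF library made from each lysate. The Tsc2+/- allele was a germline deletion made with CMV-Cre and floxed Tsc2, so that vessel cells, glia and neurons all carried 1 intact copy. All mice were perfused with cold dissection buffer at preparation, slices recovered for hours in oxygenated fluid without blood flow, CA3 was cut away, and slices of several mice were pooled in a lysate. Cycloheximide at 100 µg/ml was given to all groups to hold ribosomes on mRNA.

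Brain capillaries are built from endothelial cells joined by tight junctions, which form the blood-brain barrier together with pericytes embedded in the capillary wall. Arterioles carry a coat of contractile smooth muscle in place of pericytes. Endothelial identity is kept by VEGF and angiopoietin receptors at the surface and by ETS and SOX transcription factors in the nucleus, and transport across the barrier relies on glucose, organic anion and drug efflux carriers. In whole-slice RNA, fewer vessel cells and less vessel RNA per cell cannot be told apart.

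The targeted gene followed its label in every library. Tsc2 RNA ranged from 186 to 214 CPM (counts scaled to library size by TMM) in the 6 WT libraries and from 128 to 137 in the 6 Tsc2+/- libraries. Total counts were 14801679 to 24067838 per RNA library and 5296006 to 13613673 per RPF library. In the 8 RPF libraries of replicates 2 and 3, 97.9% to 98.5% of non-zero counts were even, so their footprint counts carry less information than their totals say. Vessel genes made up a small part of each library. The 24 endothelial genes summed to 183 to 254 CPM in RNA and the 11 pericyte and smooth muscle genes to 90.1 to 112 CPM. None of the 42 members was at 0 in all libraries of an assay, and 0 of them lie on chromosome 17, which carries Tsc2.

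The members were sorted into 4 sets by the cells that are known to use them. The endothelial set held 24 genes taken as markers of brain endothelium, and how far each is confined to it was not tested. A broad set held 7 genes that endothelium shares with astrocytes, neurons or other brain cells (Slc2a1, Bsg, Slco1c1, Ly6e, Tjp1, Fn3k and Pltp), the pericyte set held 7 genes (Pdgfrb, Rgs5, Vtn, Kcnj8, Abcc9, Anpep and Igfbp7), and the smooth muscle set held 4 (Acta2, Tagln, Myl9 and Mylk).

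RNA levels per kilobase of transcript placed the members in order within the slice. In the 3 WT vehicle libraries, the mean level was 234 CPM per kb for Bsg, which encodes basigin, a chaperone of monocarboxylate transporters, 68.1 for Ly6e, a small glycolipid-anchored surface protein, and 28.4 for Slc2a1, the glucose transporter of the barrier. These 3 highest members all belonged to the broad set. Among genes of the endothelial set, Cldn5, the main tight junction claudin of brain capillaries, was highest at 18.1 CPM per kb. Egfl7, a secreted endothelial matrix protein, followed at 11.5, Ly6c1 at 9.46, Itm2a at 9.33 and Cdh5, the VE-cadherin of adherens junctions, at 7.02.

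Adhesion and receptor genes of the endothelial surface stood lower on the same scale. Pecam1, an adhesion molecule of endothelial junctions, had an RNA level of 4.02 CPM per kb, Flt1, the VEGF receptor 1, 2.11, Tek, the angiopoietin receptor TIE2, 0.841, its relative Tie1 1.204 and Kdr, the VEGF receptor 2, 0.708. The efflux pump genes Abcg2 and Abcb1a were at 2.28 and 1.04 CPM per kb and the organic anion carrier Slco1a4 at 1.33. In the pericyte set, Vtn, which encodes vitronectin, led at 15.8, ahead of Rgs5, a regulator of G-protein signalling, at 5.44 and Pdgfrb, the receptor for endothelial PDGF-B, at 2.84. In the smooth muscle set, Myl9, a myosin light chain, was at 3.16, Mylk, the myosin light chain kinase, at 2.05 and Acta2, the smooth muscle actin, at 0.811 CPM per kb. Kcnj8 and Abcc9, which encode the pore and the sulfonylurea receptor subunits of the vascular ATP-sensitive potassium channel, are neighbours on chromosome 6 (6:142564837-142571614 and 6:142587862-142702766 in GRCm38, the build of mm10) and were at 0.714 and 0.711 CPM per kb.

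Many members moved together over the 12 lysates. The heat map of all members by library shows columns in which most endothelial genes were low together, most clearly Tsc2+/- vehicle replicate 3 and Tsc2+/- DHPG replicate 2, and a column in which most were high, Tsc2+/- vehicle replicate 1.

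**Figure D1:**
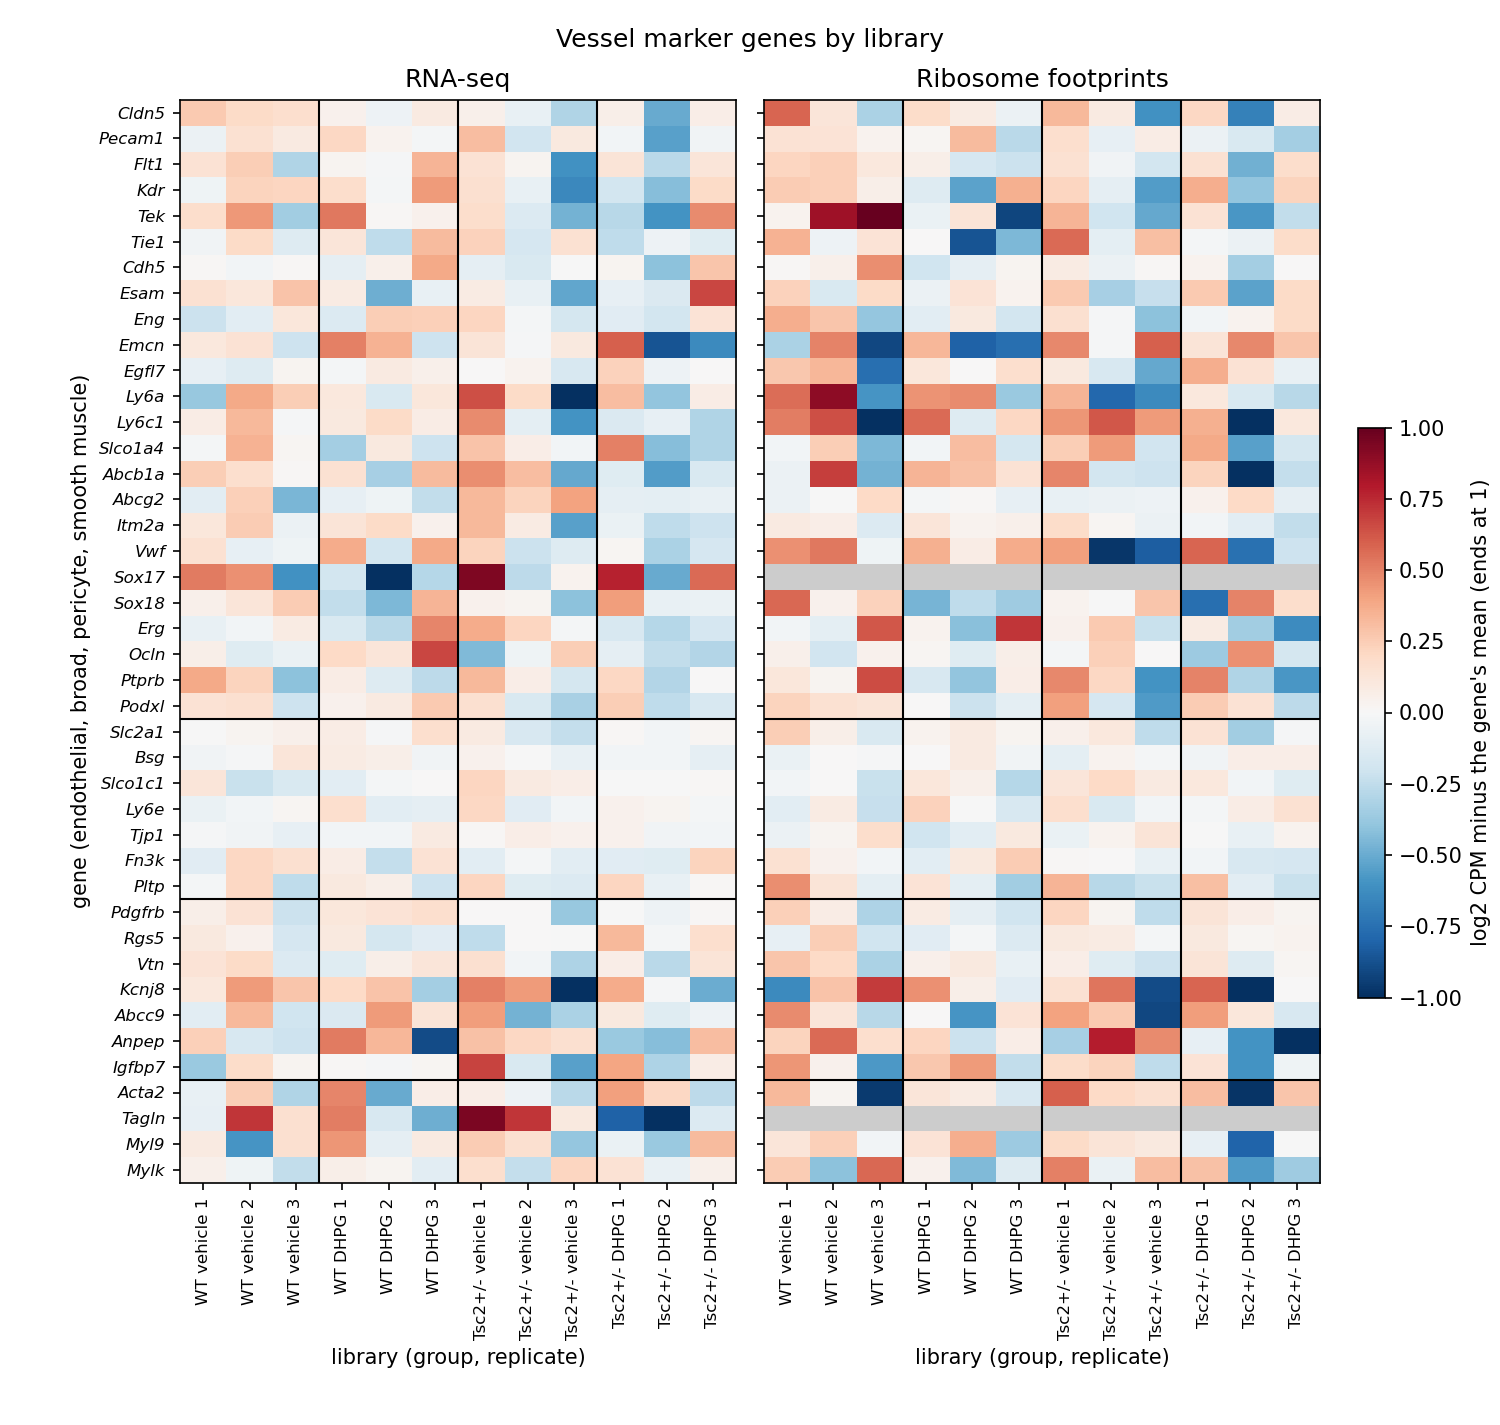
Each row is a member and each column a library, RNA-seq on the left and ribosome footprints on the right, with the 3 replicates of a group side by side. The colour gives log2 CPM minus the gene's own mean over the 12 libraries (red above, blue below, colours end at 1 and -1), grey marks Sox17 and Tagln, which were not tested in RPF, and blue columns at Tsc2+/- DHPG replicate 2 and Tsc2+/- vehicle replicate 3 recur in both assays.

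To put a number on this, the log2 CPM of each gene of a set was centred on its own mean over the 12 libraries of an assay and then averaged over the set. For the 24 endothelial genes in RNA, this set mean was 0.06, 0.16 and -0.05 in WT vehicle and 0.06, -0.09 and 0.13 in WT DHPG, against 0.22, -0.02 and -0.23 in Tsc2+/- vehicle and 0.07, -0.32 and -0.0050 in Tsc2+/- DHPG. The same measure in RPF, over 23 genes, was 0.19, 0.23 and -0.10 in WT vehicle and 0.05, -0.08 and -0.07 in WT DHPG, against 0.24, -0.06 and -0.20 in Tsc2+/- vehicle and 0.12, -0.23 and -0.09 in Tsc2+/- DHPG. The lowest and the highest lysate were the same in both assays, Tsc2+/- DHPG replicate 2 and Tsc2+/- vehicle replicate 1, and the distance between them was 1.454-fold in RNA and 1.39-fold in RPF.

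In RNA and RPF, group means of the endothelial set differed by less than the spread between lysates of a group. In RNA the means were 0.06 ± 0.10 in WT vehicle and 0.04 ± 0.11 in WT DHPG, against -0.01 ± 0.23 in Tsc2+/- vehicle and -0.08 ± 0.21 in Tsc2+/- DHPG (SD, n = 3 lysates). The corresponding RPF means were 0.11 ± 0.18, -0.03 ± 0.07, -0.01 ± 0.23 and -0.07 ± 0.18. The endothelial values of every pair of groups compared overlapped in both assays. The differences of group means were -0.06 (Tsc2+/- less WT in vehicle), -0.12 (the same under DHPG), -0.02 (DHPG less vehicle in WT) and -0.07 (DHPG less vehicle in Tsc2+/-) in RNA, and -0.11, -0.03, -0.14 and -0.06 in RPF, against a pooled SD between lysates of a group of 0.17 in each assay. The set means are descriptions and were not tested.

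Set means of footprints per RNA were formed in the same way from log2 RPF CPM minus log2 RNA CPM. For the 23 endothelial genes they were 0.14, 0.08 and -0.07 in WT vehicle and -0.02, -0.04 and -0.22 in WT DHPG, against 0.04, -0.05 and 0.04 in Tsc2+/- vehicle and 0.08, 0.08 and -0.06 in Tsc2+/- DHPG. The groups overlapped in each comparison, and the differences of group means were -0.04 for genotype in vehicle, 0.13 for genotype under DHPG, -0.15 for DHPG in WT and 0.02 for DHPG in Tsc2+/-, beside a pooled SD of 0.09. Without overlap were the 10 pericyte and smooth muscle genes as a single set for DHPG in WT (difference -0.11). Their values were 0.14, 0.05 and -0.03 in WT vehicle and -0.04, -0.07 and -0.05 in WT DHPG. The 3 smooth muscle genes alone did not overlap for DHPG in Tsc2+/- (difference -0.47). They were at 0.25, 0.12 and 0.32 in Tsc2+/- vehicle and 0.0018, -0.65 and -0.06 in Tsc2+/- DHPG. Much of that difference rested on Tsc2+/- DHPG replicate 2, which had only 10, 16 and 12 footprint counts for Acta2, Myl9 and Mylk. How often sets of 3 against 3 lysates separate without a difference between groups was not tested. All other comparisons of the endothelial, broad, pericyte and smooth muscle sets overlapped in RNA, RPF and footprints per RNA.

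**Figure D2:**
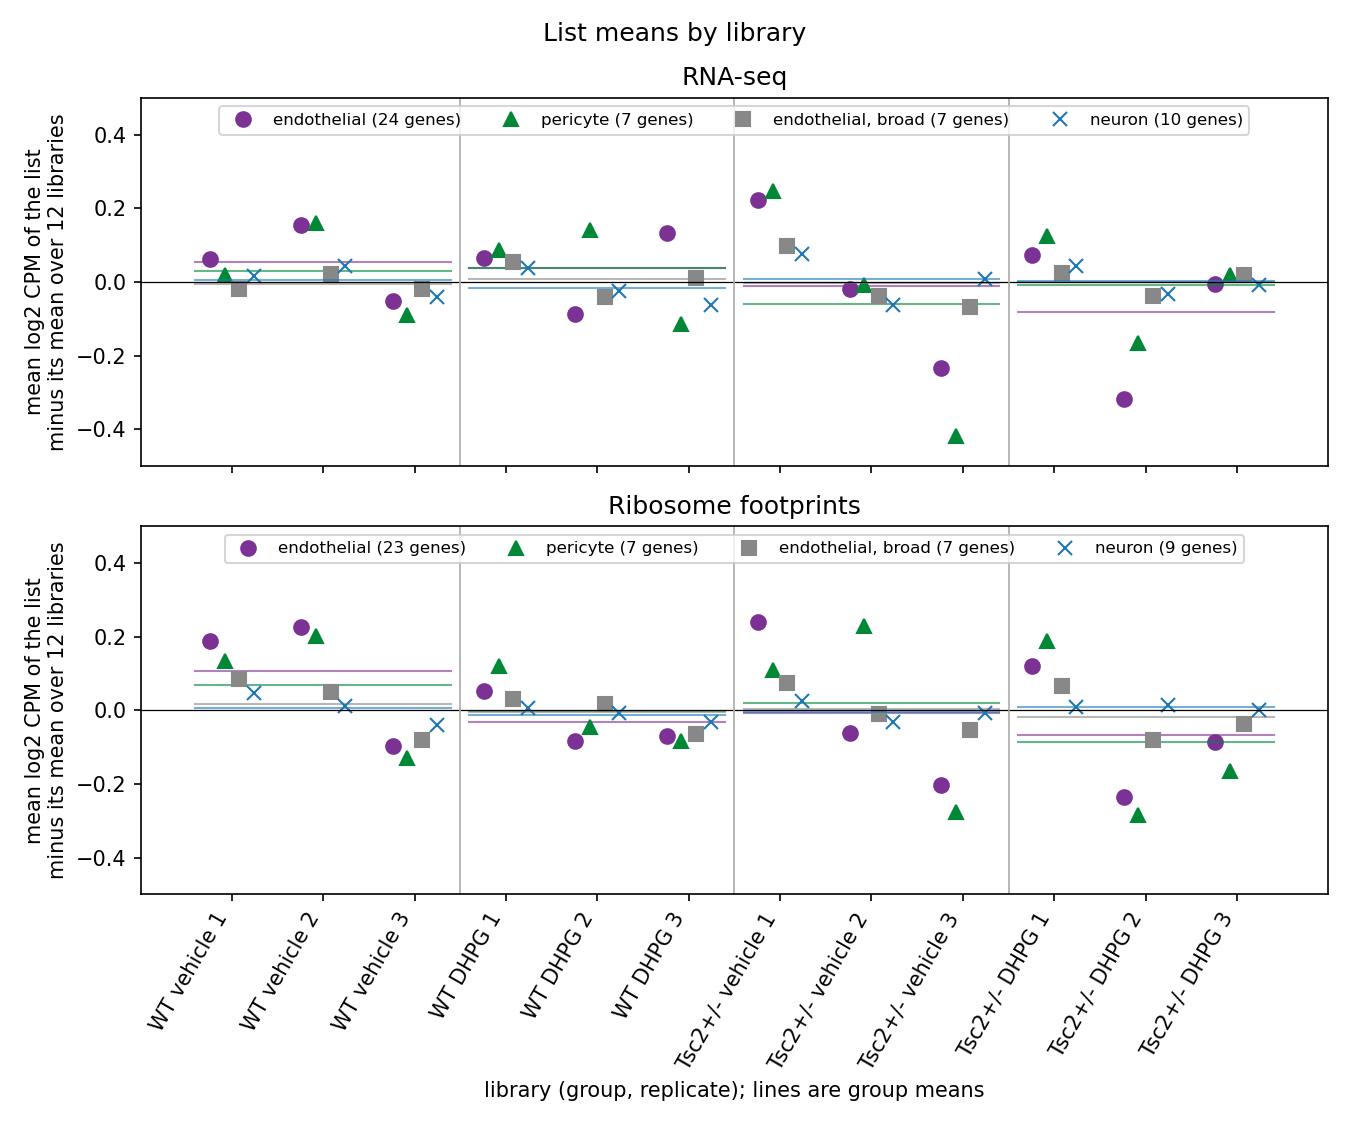
Set means of centred log2 CPM (y axis) for each library (x axis, 3 per group), with RNA-seq above and footprints below, and horizontal lines at the group means. Endothelial circles and pericyte triangles spread widely between replicates of a group and drop together in Tsc2+/- vehicle replicate 3 and Tsc2+/- DHPG replicate 2, while broad-set squares and neuronal crosses span much smaller distances, the squares rising and falling with the circles.

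The spread of the endothelial set mean between lysates was wider than counting error. The counting SD of the endothelial set mean was at most 0.04 in any RNA library and 0.06 in any RPF library, or 0.08 if the even footprint counts are taken as pairs, against an SD over the 12 libraries of 0.16 in each assay. These counting values cover counting error only. The pericyte set had an SD over the 12 libraries of 0.18 in RNA and 0.19 in RPF. Its counting SD was at most 0.08 in RNA and 0.12 in RPF. With the even footprint counts taken as pairs it reached 0.17 in RPF, close to the SD over libraries.

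The set means of the pericyte and broad genes moved with that of the endothelial genes from lysate to lysate. The set mean of the 7 pericyte genes in RNA was 0.02, 0.16 and -0.09 in WT vehicle and 0.09, 0.14 and -0.11 in WT DHPG, against 0.25, -0.01 and -0.42 in Tsc2+/- vehicle and 0.13, -0.17 and 0.02 in Tsc2+/- DHPG. It was lowest in Tsc2+/- vehicle replicate 3 and highest in Tsc2+/- vehicle replicate 1, so that the widest gap between any 2 lysates fell inside a single group. Over the 12 libraries, Pearson's r between the endothelial and the pericyte set means was 0.72 in RNA (Spearman's rho 0.64) and 0.81 in RPF (rho 0.80). In RNA the value fell to 0.41 without the 2 libraries farthest from the median, Tsc2+/- DHPG replicate 2 and Tsc2+/- vehicle replicate 3, so much of it rested on them, whereas in RPF it was 0.82 without its 2 farthest libraries. The broad set moved with the endothelial set at least as closely, with r = 0.79 in RNA (0.79 without the same 2 libraries) and 0.90 in RPF, but over a span of only 0.17 on the log2 scale in RNA, against 0.54 for the endothelial set. These r values describe 12 libraries that share scaling and batches, among 27 relations computed, and carry no p. The smooth muscle set had only 4 genes in RNA and 3 in RPF, and its set mean reached -0.73 in RPF of Tsc2+/- DHPG replicate 2, its lowest lysate, against 0.41 in Tsc2+/- vehicle replicate 1, its highest.

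RNA and footprints of a lysate moved in parallel for the vessel sets. The endothelial set means of the 2 assays had a Pearson's r of 0.85 and a Spearman's rho of 0.87 over the 12 lysates, r = 0.76 without the 2 farthest lysates and r = 0.94 once group and replicate number were taken out. For the pericyte set r was 0.73 and for the broad set 0.52. The 2 libraries of a point share a lysate, so these values describe the lysates and not separate animals. Set means of other cell types also ran in parallel between the assays, with r = 0.90 for microglia, 0.87 for oligodendrocytes and 0.78 for astrocytes.

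**Figure D3:**
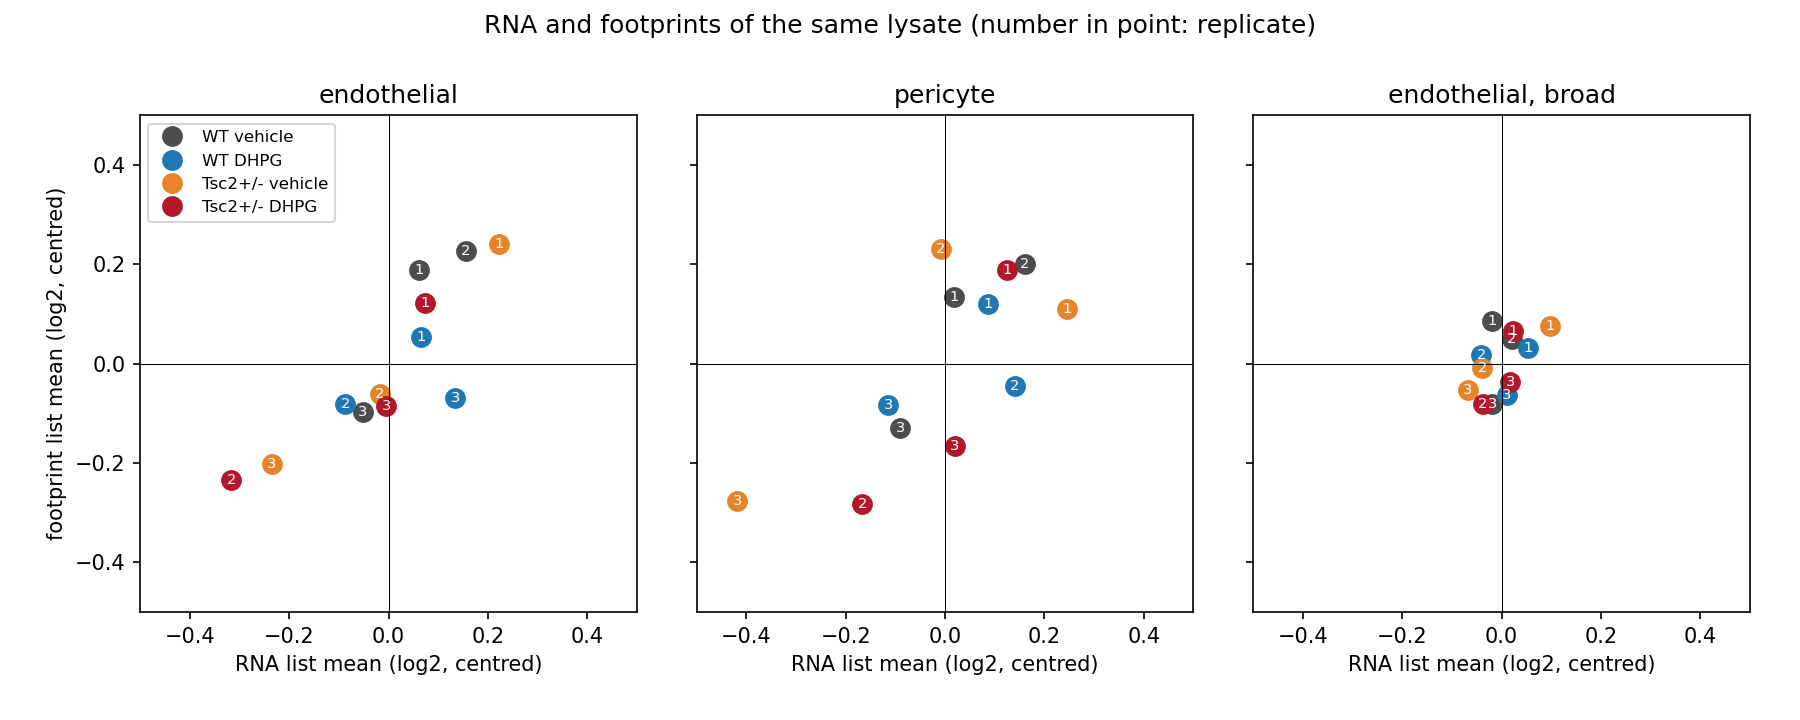
Each point is a lysate, placed by its set mean in RNA (x axis) and in footprints (y axis), coloured by group and numbered by replicate, for the endothelial, pericyte and broad sets. Endothelial points run along a rising line with Tsc2+/- DHPG replicate 2 and Tsc2+/- vehicle replicate 3 at the low end and Tsc2+/- vehicle replicate 1 at the high end, and the colours are mixed along it.

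The vessel sets also moved with the replicate number. All 4 lysates of replicate 1 had an endothelial set mean above 0, between 0.06 and 0.22 in RNA and between 0.05 and 0.24 in RPF. All 4 lysates of replicate 3 were below 0 in RPF, between -0.20 and -0.07, but spanned -0.23 to 0.13 in RNA. Sets of other cells moved with the number as well. All 4 neuronal values of replicate 1 were above 0 in both assays, and all 4 astrocyte and all 4 microglia values of replicate 3 were below 0 in both, those of microglia in RPF between -0.44 and -0.22. Replicate 1 also differed from the others in the even footprint counts, and the RPF set mean moved with log2 total counts over the 12 libraries (r = 0.53, against -0.07 in RNA). Once group and replicate number were taken out, both assays moved with total counts, at r = 0.67 in RPF and 0.74 in RNA. The part of depth and batch in the set means was not tested.

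Not every member took part in this shared shift. Correlated with the mean of the other endothelial genes over the 12 RNA libraries, Abcb1a stood at r = 0.85, the pericyte gene Vtn at 0.84, Cldn5 and Flt1 both at 0.80 and Igfbp7 at 0.73. At the other end, Ocln, which encodes the tight junction protein occludin, stood at -0.08, Abcg2 at -0.02 and the pericyte gene Rgs5 at -0.0011. Ocln and Abcg2 were also negative in RPF, at -0.54 and -0.37, as was Bsg at -0.63. Over the 7 broad genes the median r was 0.28 in RNA and 0.25 in RPF. Over the 7 pericyte genes it was 0.50 and 0.62. Over pairs of endothelial genes, the median r was 0.31 in RNA and 0.19 in RPF, against 0.06 and 0.09 between endothelial and neuronal genes. The RPF value was no higher than that between endothelial and microglia genes (0.25) or endothelial and astrocyte genes (0.20), and it fell to 0.06 once group and replicate number were taken out, while the RNA value was then 0.39. Pairs within some other cell types had higher RNA medians, at 0.57 for oligodendrocyte, 0.43 for microglia and 0.37 for astrocyte genes. With group and replicate number taken out, these were 0.61, 0.04 and 0.59. Medians were lower within fibroblast (0.11), pericyte (0.06), smooth muscle (-0.0036) and neuronal genes (-0.01). Pairs within the broad set had a median r of 0.01 in RNA.

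Cldn5 shows the low end of the lysate pattern in a single gene, while its highest RNA values were those of WT vehicle. Its RNA was at 26.6, 25.4 and 24.96 CPM in WT vehicle and 23.0, 21.4 and 23.7 in WT DHPG, against 23.0, 21.2 and 18 in Tsc2+/- vehicle and 23.1, 15.7 and 23.3 in Tsc2+/- DHPG. Footprints of Cldn5 were at 26.9, 19.6 and 14.5 CPM in WT vehicle and 20.4, 19.1 and 17.2 in WT DHPG, against 22.5, 19.1 and 11.8 in Tsc2+/- vehicle and 20.7, 11.2 and 18.9 in Tsc2+/- DHPG. Tsc2+/- vehicle replicate 3 and Tsc2+/- DHPG replicate 2 were its 2 lowest libraries in both assays, and its RNA and footprints had an r of 0.78 over the 12 lysates, the highest of the 40 members measured in both. Flt1 was low in these lysates and in WT vehicle replicate 3, with RNA at 15.6, 16.7 and 11.4 CPM in WT vehicle and 14.4, 14.0 and 17.8 in WT DHPG, against 15.6, 14.3 and 9.25 in Tsc2+/- vehicle and 15.4, 11.7 and 15.3 in Tsc2+/- DHPG. Vtn RNA, in pericytes, was at 28.8, 29.9 and 23.9 CPM in WT vehicle and 24.1, 27.3 and 28.5 in WT DHPG, against 29.4, 25.7 and 21.2 in Tsc2+/- vehicle and 27.5, 21.8 and 28.7 in Tsc2+/- DHPG, again with its 2 lowest values in those lysates.

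For several other genes of the vessel wall, the same lysates held the ends of the range in RNA. Pecam1 ranged from 8.79 CPM in Tsc2+/- DHPG replicate 2 to 15.9 in Tsc2+/- vehicle replicate 1. Kdr was lowest, at 2.44 CPM, in Tsc2+/- vehicle replicate 3 and highest, at 5.11, in WT DHPG replicate 3. The surface antigen gene Ly6c1 ranged from 4.92 CPM in Tsc2+/- vehicle replicate 3 to 10.3 in Tsc2+/- vehicle replicate 1, the 2 ends lying within a group. Slco1a4, an organic anion carrier, spanned 3.51 to 6.66 CPM, both ends in Tsc2+/- DHPG. The matrix gene Igfbp7 spanned 3.88 CPM in Tsc2+/- vehicle replicate 3 to 9.05 in Tsc2+/- vehicle replicate 1. Pdgfrb was steadier, from 11.8 to 17.2 CPM, with its lowest value again in Tsc2+/- vehicle replicate 3.

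The members with the smallest variation in RNA were Tjp1, which encodes the junction scaffold ZO-1, at a coefficient of variation over the 12 libraries of 3.55%, and Bsg at 4.52%, both of the broad set. Bsg RNA was at 394, 399 and 439 CPM in WT vehicle and 428, 420.2 and 394 in WT DHPG, against 416, 402 and 383 in Tsc2+/- vehicle and 395, 395 and 378 in Tsc2+/- DHPG. For Slc2a1 and Ly6e the variation was 7.38% and 7.17%. Scarce genes varied more. Acta2 RNA was at 2.02, 2.52 and 1.72 CPM in WT vehicle and 2.98, 1.496 and 2.23 in WT DHPG, against 2.23, 2.06 and 1.76 in Tsc2+/- vehicle and 2.82, 2.45 and 1.77 in Tsc2+/- DHPG, from only 27 to 64 counts per library, and the variation reached 21.1% for Acta2, 20.5% for Myl9 and 42.8% for Tagln, which encodes the actin-binding protein transgelin. Sox17, a transcription factor of arterial endothelium, had 42.9% from 5 to 29 counts.

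Rgs5, a pericyte marker, did not show this lysate pattern in RNA. Its RNA was at 23.9, 23.0 and 19.9 CPM in WT vehicle and 23.9, 19.8 and 20.7 in WT DHPG, against 18.7, 22.4 and 22.4 in Tsc2+/- vehicle and 28.1, 22.1 and 25.2 in Tsc2+/- DHPG. Its footprints were at 45.0, 56.5 and 41.5 CPM in WT vehicle and 44.0, 47.1 and 43.3 in WT DHPG, against 51.1, 50.4 and 47.1 in Tsc2+/- vehicle and 50.9, 48.2 and 48.9 in Tsc2+/- DHPG. The values of Tsc2+/- vehicle replicate 3 and Tsc2+/- DHPG replicate 2 lay inside the range of the other lysates in RNA.

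The remaining endothelial and pericyte members covered a wide span of RNA values. Emcn, the endothelial sialomucin endomucin, ranged from 0.720 to 1.98 CPM over the 12 libraries, Podxl, a related sialomucin, from 14.7 to 22.2, Ptprb, the VE-PTP phosphatase that acts on TIE2, from 12.3 to 21.3 and Eng from 13.6 to 18.8. The ETS factor gene Erg ranged from 4.90 to 8.38 CPM and Sox18 from 2.99 to 5.47. Ly6a, the surface antigen Sca-1, ranged from 1.04 to 3.56 CPM and the pericyte channel genes Kcnj8 and Abcc9 from 0.451 to 2.13 and from 3.80 to 7.09.

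Dispersion put the same spread on a scale that allows for abundance. Measured as edgeR's biological coefficient of variation, 17 of 24 endothelial genes lay above the trend for their abundance in RNA and 18 of 23 in RPF, against 39.6% and 40.9% of all genes tested, while 3 and 2 of the 7 broad genes did. Microglia genes showed the same, with 8 and 7 of 10 above the trend, as did oligodendrocyte genes, with 7 of 10 in each assay. Counts were lower for neuronal genes, at 5 of 10 in RNA and 2 of 9 in RPF. They were 4 and 6 of 10 for astrocyte genes and 5 of 10 in each assay for fibroblast genes.

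Each gene was then tested between groups with edgeR across all genes, and a gene was counted as called at an adjusted p under 0.1. These p-values measure the spread between pooled lysates.

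The first comparison asked whether loss of 1 Tsc2 copy went with a change in vessel genes at rest. In RNA, edgeR called 0 of 42 members in Tsc2+/- against WT slices under vehicle, where 0.0896% of all genes were called. At an unadjusted p under 0.05 there were 2 higher and 1 lower members, against 4.9% of all genes, and DESeq2 called 0 with 3 members under that unadjusted threshold. By edgeR, the members under that threshold, with log2 fold changes, were Abcg2 (0.40) and Slco1c1 (0.21) above 0 and Cldn5 (-0.31) below 0. The median log2 fold change of the 42 members was -0.04, with 27 lower and 15 higher, beside -0.0021 over all genes. Its sign rested on single libraries, since it was 0.0665 without WT vehicle replicate 2, 0.00607 without Tsc2+/- vehicle replicate 3 and -0.143 without replicate 1 of all groups. In RPF, edgeR called 0 of 40 members (background 0.0233%), with 1 higher and 4 lower at an unadjusted p under 0.05 (background 6.55%). DESeq2 also called 0 there, with 5 under the unadjusted threshold and no adjusted p for 31 of the 40 members. By edgeR, the members under that threshold, with log2 fold changes, were Slco1c1 (0.22) above 0 and Vwf (-0.69), Pltp (-0.22), Ly6a (-0.67) and Tek (-0.73) below 0. The median was -0.09 for the members and -0.16 for the 23 endothelial genes. For footprints per RNA, edgeR called 0 of 40 (background 0%), 2 were lower at an unadjusted p under 0.05 (background 5.76%), and DESeq2 called 0, also with 2 under that threshold.

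The genes with the smallest p in vehicle leaned in different directions. Cldn5 RNA was lower in each Tsc2+/- vehicle library than in each WT vehicle library, by the values given above (log2 fold change -0.31, SE 0.11, adjusted p = 0.920). Abcg2, the breast cancer resistance protein of the luminal membrane, leaned the other way in RNA, at 5.58, 7.09 and 4.38 CPM in WT vehicle and 7.52, 7.02 and 7.94 in Tsc2+/- vehicle (log2 fold change 0.40, SE 0.17, adjusted p = 0.983), where WT vehicle replicate 2 reached into the Tsc2+/- range. Slco1c1, the thyroxine carrier that endothelium shares with astrocytes, had RPF values of 121, 124 and 105 CPM in WT vehicle and 134, 141 and 131 in Tsc2+/- vehicle (log2 fold change 0.22, SE 0.07, adjusted p = 0.587). Those groups did not overlap, and its RNA leaned the same way (log2 fold change 0.21, SE 0.09). Vwf, the von Willebrand factor of larger vessels, had RPF values of 8.58, 9.03 and 6.09 CPM in WT vehicle and 8.29, 3.18 and 3.54 in Tsc2+/- vehicle (log2 fold change -0.69, SE 0.26, adjusted p = 0.636), and Tsc2+/- vehicle replicate 1 sat among the WT libraries. In footprints per RNA, the smallest p values belonged to Abcg2 (log2 fold change -0.50, SE 0.21, adjusted p = 0.863) and Vwf (log2 fold change -0.63, SE 0.31, adjusted p = 0.863).

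Under DHPG, endothelial genes leaned lower in Tsc2+/- in RNA, were evenly split in RPF and leaned higher in footprints per RNA. In RNA, edgeR called 0 of 42 members (background 0.0482%), with 1 higher and 3 lower at an unadjusted p under 0.05 (background 4.64%), and DESeq2 called 0 with 2 under that threshold. By edgeR, the members under that threshold, with log2 fold changes, were Rgs5 (0.23) above 0 and Ocln (-0.55), Itm2a (-0.30) and Vwf (-0.36) below 0. Of the 24 endothelial genes, 17 had a negative log2 fold change and the median was -0.19, against 0.00100 in the broad set and -0.00026 over all genes. The median of all 42 members was -0.11, and it became -0.00521 without Tsc2+/- DHPG replicate 2, the lysate lowest in endothelial RNA, and -0.0136 without WT DHPG replicate 3, the highest of its group. In RPF, 12 endothelial genes were above 0 and 11 below, the median was 0.0044, edgeR called 0 of 40 (background 0.0155%), and 0 had an unadjusted p under 0.05 in edgeR or in DESeq2 (background 4.13%), which also called 0. For footprints per RNA, edgeR and DESeq2 called 0 of 40 (background 0%), with 0 under the unadjusted threshold by either tool (background 3.03%). Of the 23 endothelial genes there, 18 were above 0 and 5 below, with a median of 0.08.

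Ocln RNA was at 5.04, 4.45 and 4.63 CPM in WT vehicle and 5.56, 5.26 and 7.67 in WT DHPG, against 3.56, 4.70 and 5.73 in Tsc2+/- vehicle and 4.54, 4.08 and 3.95 in Tsc2+/- DHPG. Under DHPG each Tsc2+/- library lay below each WT library (log2 fold change -0.55, SE 0.19, adjusted p = 0.838), WT DHPG replicate 3 being the highest of the 12. Its footprints did not follow, with a log2 fold change of -0.02 (SE 0.18), and its footprints per RNA had log2 fold change 0.54, SE 0.27, adjusted p = 0.9997. Itm2a, a membrane protein of barrier endothelium, leaned alike in both assays, with RNA at 15.5, 16.2 and 14.5 CPM in WT DHPG and 13.5, 11.9 and 12.2 in Tsc2+/- DHPG (log2 fold change -0.30, SE 0.13, adjusted p = 0.997) and footprints at 44.0, 41.5 and 42.1 CPM in WT DHPG and 39.8, 37.8 and 34.2 in Tsc2+/- DHPG (log2 fold change -0.19, SE 0.09, adjusted p = 0.9995). The groups did not overlap in either assay, and the adjusted p values were far from the threshold. Abcb1a, the P-glycoprotein efflux pump, had RPF values of 13.4, 12.9 and 11.7 CPM in WT DHPG and 12.3, 5.23 and 8.97 in Tsc2+/- DHPG (log2 fold change -0.47, SE 0.26, adjusted p = 0.9995), with Tsc2+/- DHPG replicate 2 the lowest. Pdgfrb had footprints per RNA of 1.59, 1.39 and 1.26 in WT DHPG and 1.79, 1.76 and 1.65 in Tsc2+/- DHPG (log2 fold change 0.31, SE 0.16, adjusted p = 0.9997).

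The response of WT slices to 5 min of DHPG was the next question. In RNA, edgeR called 0 of 42 members (background 0%) and 0 had an unadjusted p under 0.05 by edgeR or DESeq2, although 6.45% of all genes did, and DESeq2 called 0. The median log2 fold change was 0.04, and it turned to -0.0488 without WT DHPG replicate 3 and -0.0408 without WT vehicle replicate 1. In RPF, edgeR called 0 of 40 (background 0.0311%), with 0 higher and 4 lower at an unadjusted p under 0.05 (background 6.71%), and DESeq2 called 0, with 3 under the unadjusted threshold and no adjusted p for 31 members. By edgeR, the members under that threshold, with log2 fold changes, were Pltp (-0.27), Tek (-0.89), Flt1 (-0.30) and Cdh5 (-0.26) below 0. Of the 40 members, 28 had fewer footprints, with a median of -0.08. For footprints per RNA, edgeR called 0 of 40 (background 0.0548%), 2 were lower at an unadjusted p under 0.05 (background 9.06%), and DESeq2 called 0 with 2 under that threshold and no adjusted p for 34 members. The median was -0.25 for the 23 endothelial genes and -0.01 for the 7 broad genes, beside -0.00036 over all genes.

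Cdh5 and Tek stood nearest to a call in footprints per RNA. Cdh5 had footprints per RNA (RPF CPM over RNA CPM) of 1.07, 1.12 and 1.454 in WT vehicle and 0.992, 0.968 and 0.834 in WT DHPG (log2 fold change -0.39, SE 0.16, adjusted p = 0.443). Each WT DHPG lysate was below each WT vehicle lysate, and WT vehicle replicate 3 stood above the other two. Tek footprints were at 3.43, 6.02 and 6.85 CPM in WT vehicle and 3.20, 3.66 and 1.77 in WT DHPG, against 4.24, 2.92 and 2.36 in Tsc2+/- vehicle and 3.70, 2.24 and 2.83 in Tsc2+/- DHPG. In WT they were fewer under DHPG (log2 fold change -0.89, SE 0.32, adjusted p = 0.605), with an overlap between replicates, and its footprints per RNA had log2 fold change -0.95, SE 0.44, adjusted p = 0.504. Tek had only 12 to 48 footprint counts per library. Pltp, a phospholipid transfer protein that other brain cells also make, had RPF values of 83.0, 66.0 and 56.3 CPM in WT vehicle and 66.2, 56.2 and 47.4 in WT DHPG, against 76.2, 49.6 and 51.6 in Tsc2+/- vehicle and 74.1, 56.1 and 51.7 in Tsc2+/- DHPG. Its DHPG difference in WT (log2 fold change -0.27, SE 0.09, adjusted p = 0.510) was the same in sign in 3 of 3 same-numbered pairs but smaller than the spread between replicates of WT vehicle. In RNA the smallest p values were those of Ocln (log2 fold change 0.39, SE 0.19, adjusted p = 0.768) and of Esam, an endothelial adhesion molecule (log2 fold change -0.34, SE 0.20, adjusted p = 0.819).

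In Tsc2+/- slices the DHPG comparison gave calls for no member either. In RNA, edgeR called 0 of 42 (background 0%), 1 was higher and 4 were lower at an unadjusted p under 0.05 (background 4.32%), and DESeq2 called 0 with 3 under that threshold. By edgeR, the members under that threshold, with log2 fold changes, were Rgs5 (0.24) above 0 and Tagln (-1.28), Abcg2 (-0.41), Erg (-0.40) and Pecam1 (-0.27) below 0. The median was -0.01, and it turned to 0.0918 without Tsc2+/- DHPG replicate 2 and 0.0833 without Tsc2+/- vehicle replicate 1. In RPF, edgeR and DESeq2 called 0 of 40 (background 0%) and 0 had an unadjusted p under 0.05 by either tool (background 4.03%), with a median of -0.06 that turned to 0.0417 without Tsc2+/- DHPG replicate 2. For footprints per RNA, edgeR called 0 of 40 (background 0%), 1 was higher at an unadjusted p under 0.05 (background 3.65%), and DESeq2 called 0 with 1 under that threshold.

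Tagln had the widest RNA difference of the members in this comparison, at 1.78, 1.52 and 0.993 CPM in Tsc2+/- vehicle and 0.529, 0.336 and 0.842 in Tsc2+/- DHPG (log2 fold change -1.28, SE 0.45, adjusted p = 0.9998). The groups did not overlap, but the values rest on 7 to 37 counts per library and the other smooth muscle genes ran from -0.06 for Myl9 to 0.21 for Acta2. Abcg2 RNA was at 7.52, 7.02 and 7.94 CPM in Tsc2+/- vehicle and 5.64, 5.62 and 5.72 in Tsc2+/- DHPG (log2 fold change -0.41, SE 0.17, adjusted p = 0.9998), while its footprints were level at 18.9, 19.1 and 19.2 CPM in Tsc2+/- vehicle and 20.5, 22.8 and 18.6 in Tsc2+/- DHPG. Its footprints per RNA accordingly leaned upward (log2 fold change 0.51, SE 0.21, adjusted p = 0.999). Rgs5 was the 1 member above 0 under the unadjusted threshold in RNA (log2 fold change 0.24, SE 0.10), and its footprints per RNA had log2 fold change -0.24, SE 0.15, adjusted p = 0.999. Anpep, the aminopeptidase N of pericytes, and Slco1c1 had the smallest p values in RPF, with log2 fold changes of -0.89 (SE 0.46, adjusted p = 0.9999) and -0.14 (SE 0.07, adjusted p = 0.9999).

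**Figure D4:**
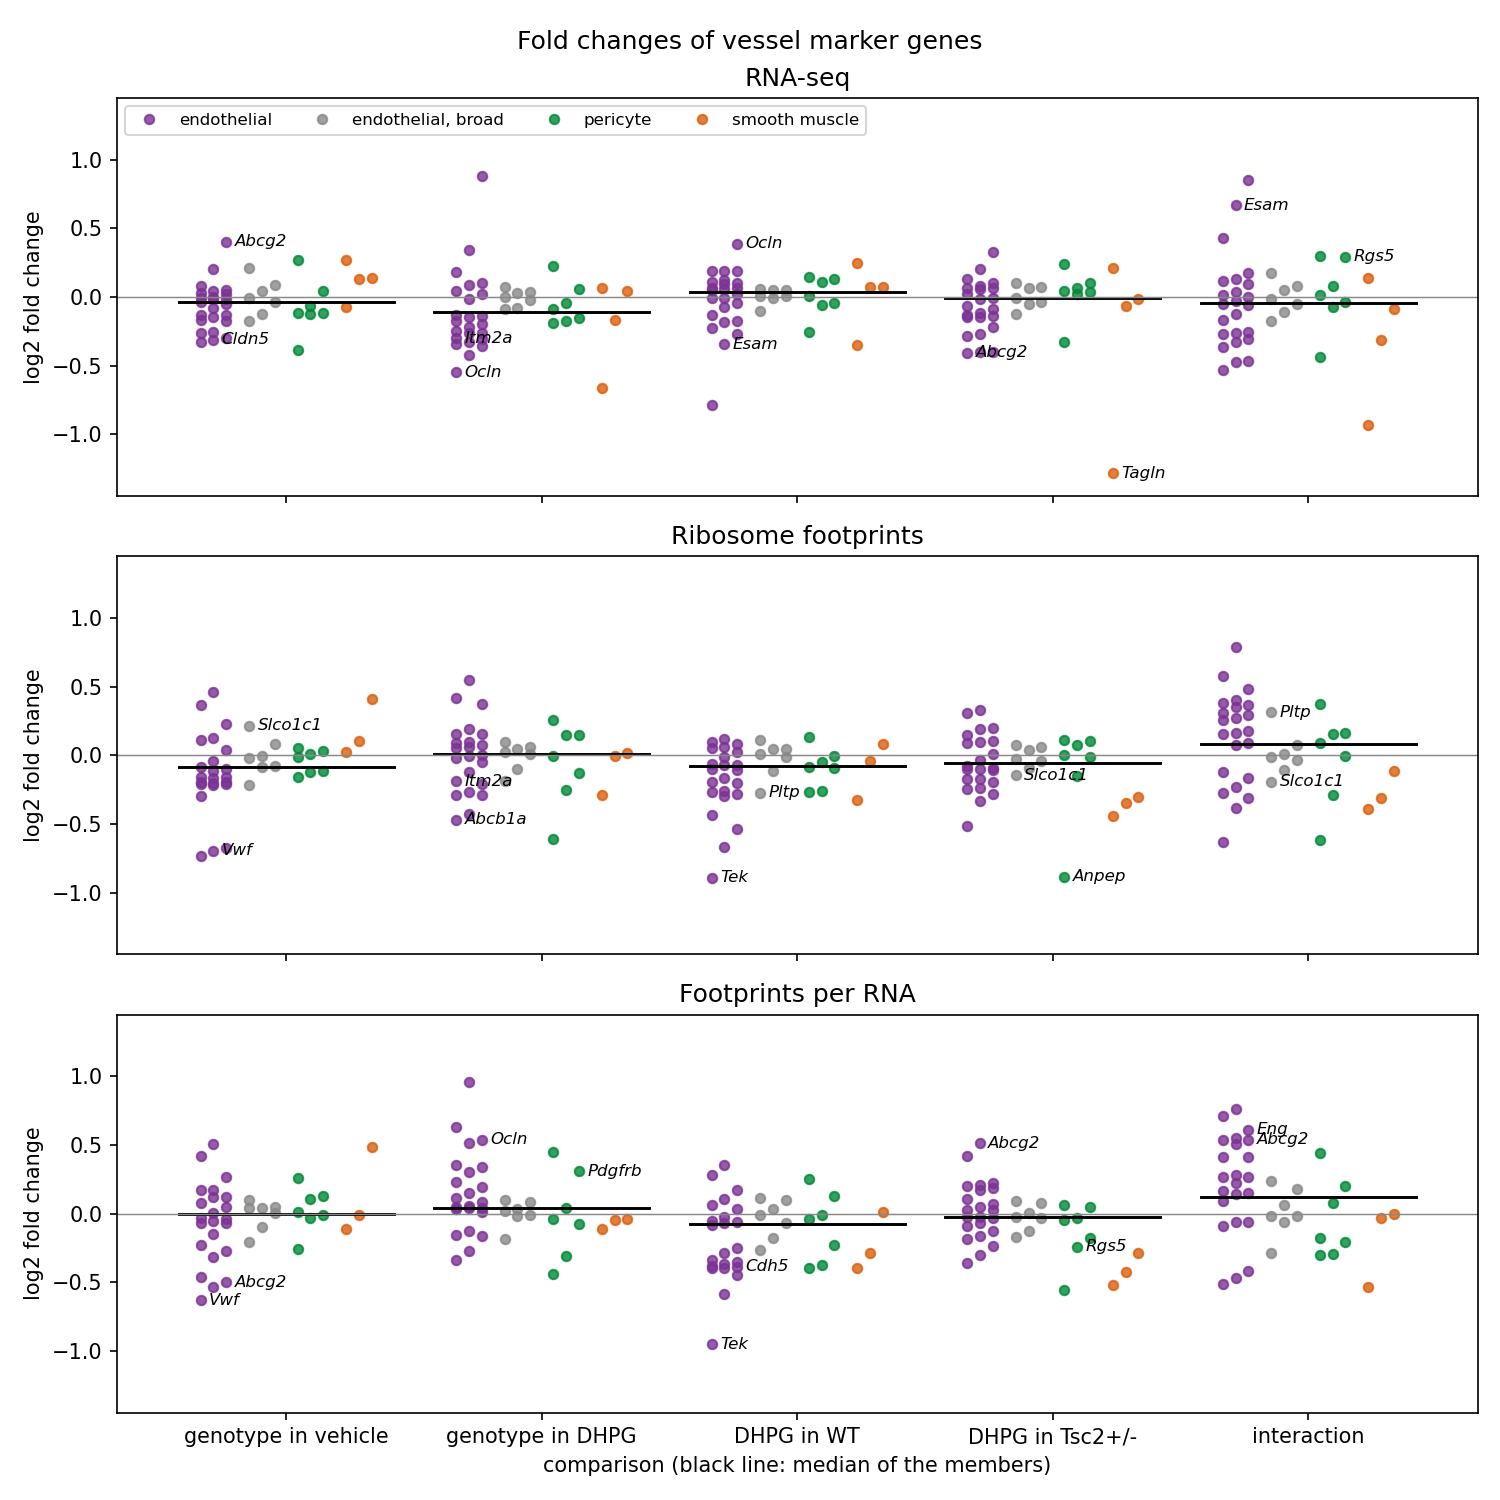
Log2 fold changes (y axis) of the members in the 5 comparisons (x axis) for RNA-seq, footprints and footprints per RNA, each point a gene coloured by set, with the median of all members as a black line. The 2 members with the smallest p in each comparison are named, none passed an adjusted p under 0.1, and the medians lie between -0.11 and 0.12.

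Whether the DHPG response of vessel genes differed between the genotypes was tested with the interaction term. In RNA, edgeR called 0 of 42 members (background 0%), 1 was higher at an unadjusted p under 0.05 (background 3.47%), and DESeq2 called 0 with 1 under that threshold. In RPF, 0 of 40 were called by edgeR or DESeq2 (background 0%), and each had 1 under the unadjusted threshold (background 3.81%). For footprints per RNA, edgeR and DESeq2 called 0 of 40 (background 0%) and had 0 under the unadjusted threshold (background 4.06%). The smallest p values were those of Esam (log2 fold change 0.67, SE 0.28, adjusted p = 0.999) and Rgs5 in RNA (log2 fold change 0.29, SE 0.15, adjusted p = 0.999), Pltp (log2 fold change 0.31, SE 0.12, adjusted p = 0.998) and Slco1c1 in RPF (log2 fold change -0.19, SE 0.10, adjusted p = 0.998), and Eng, an endothelial co-receptor for TGF-beta (log2 fold change 0.61, SE 0.31, adjusted p = 0.999), and Abcg2 in footprints per RNA (log2 fold change 0.54, SE 0.30, adjusted p = 0.999). Esam RNA was at 6.32, 6.14 and 6.94 CPM in WT vehicle and 6.02, 4.04 and 5.40 in WT DHPG, against 6.03, 5.41 and 3.97 in Tsc2+/- vehicle and 5.38, 5.14 and 9.04 in Tsc2+/- DHPG. Its value in Tsc2+/- DHPG replicate 3 was the highest of the 12, and the Tsc2+/- groups overlapped.

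The size of change that these tests could have seen was limited by the spread between lysates. The median SE of a member's log2 fold change, over the 4 comparisons between groups, was 0.17 in RNA, 0.19 in RPF and 0.27 in footprints per RNA. An adjusted p above 0.1 therefore does not show that a gene was the same in 2 groups, above all for genes with few footprints such as Ly6c1, Kcnj8 and Anpep, with as few as 2, 4 and 6 counts per library. Ly6a, Ly6c1 and Ly6e are paralogs in 1 cluster on chromosome 15. Since only unique alignments were taken before RSEM counted, reads that fit more than 1 of them may be missing. Their separate levels are therefore uncertain.

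Footprints per RNA also differed between the members within a group. With RPF CPM per kb of coding sequence set over RNA CPM per kb of transcript in the WT vehicle libraries, and the median of 11987 genes set to 0 on the log2 scale, the 40 members had a median of 0.30, and 25 of them lay above 0. By set, the median was 0.07 for the 23 endothelial genes, of which 12 lay above 0. It was 0.63 for the 7 broad, 0.29 for the 7 pericyte and 0.79 for the 3 smooth muscle genes. Marker genes of other cells had medians of 0.33 (neuronal), 0.61 (microglia), 0.81 (oligodendrocyte) and 0.82 (astrocyte). Among the members, Rgs5 stood highest at 3.00 ± 0.19 (SD, n = 3 lysates), a ratio 7.99-fold that of the median gene. Fn3k, which encodes a kinase that removes sugar adducts from proteins, followed at 2.06 ± 0.26, Slco1c1 at 1.75 ± 0.20 and Ly6e at 1.72 ± 0.18. Neighbours among these 3 differed by less than their replicate SDs together.

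Within the endothelial set, the ratio lay above 0 for the carriers and on both sides of 0 for junction, receptor and factor genes. Of the barrier carriers, Abcg2 stood at 1.07 ± 0.46, Slco1a4 at 0.92 ± 0.25 and Abcb1a at 0.39 ± 0.54. Of the junction genes, Ocln was at 1.53 ± 0.09, Cdh5 at -0.09 ± 0.24, Cldn5 at -0.26 ± 0.40 and Pecam1 at -0.38 ± 0.14. The VEGF receptor genes Kdr and Flt1 were at 1.02 ± 0.23 and 0.67 ± 0.22, whereas Tie1 was at -1.39 ± 0.33. Among transcription factor genes, Erg was at 0.31 ± 0.32 and Sox18 at -0.91 ± 0.33. In the mural sets, Vtn was at 1.03 ± 0.16, Pdgfrb at 0.29 ± 0.15, and Mylk lowest of all at -2.81 ± 0.59. The order rests on the length scaling, which uses the longest annotated transcript of a gene, while which isoforms the slices used is not known from these tables. Rgs5 has a 546 nt coding sequence in a 4096 nt transcript, and without length scaling its footprints per RNA in the WT vehicle lysates were 1.88, 2.45 and 2.08, below those of Slco1c1 at 4.47, 5.80 and 4.69 and Vtn at 3.98, 3.64 and 3.18. The same holds for Ly6e, at 1.07, 1.19 and 0.928 unscaled. Mylk, with a 5853 nt longest coding sequence, was at 0.227, 0.154 and 0.349.

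**Figure D5:**
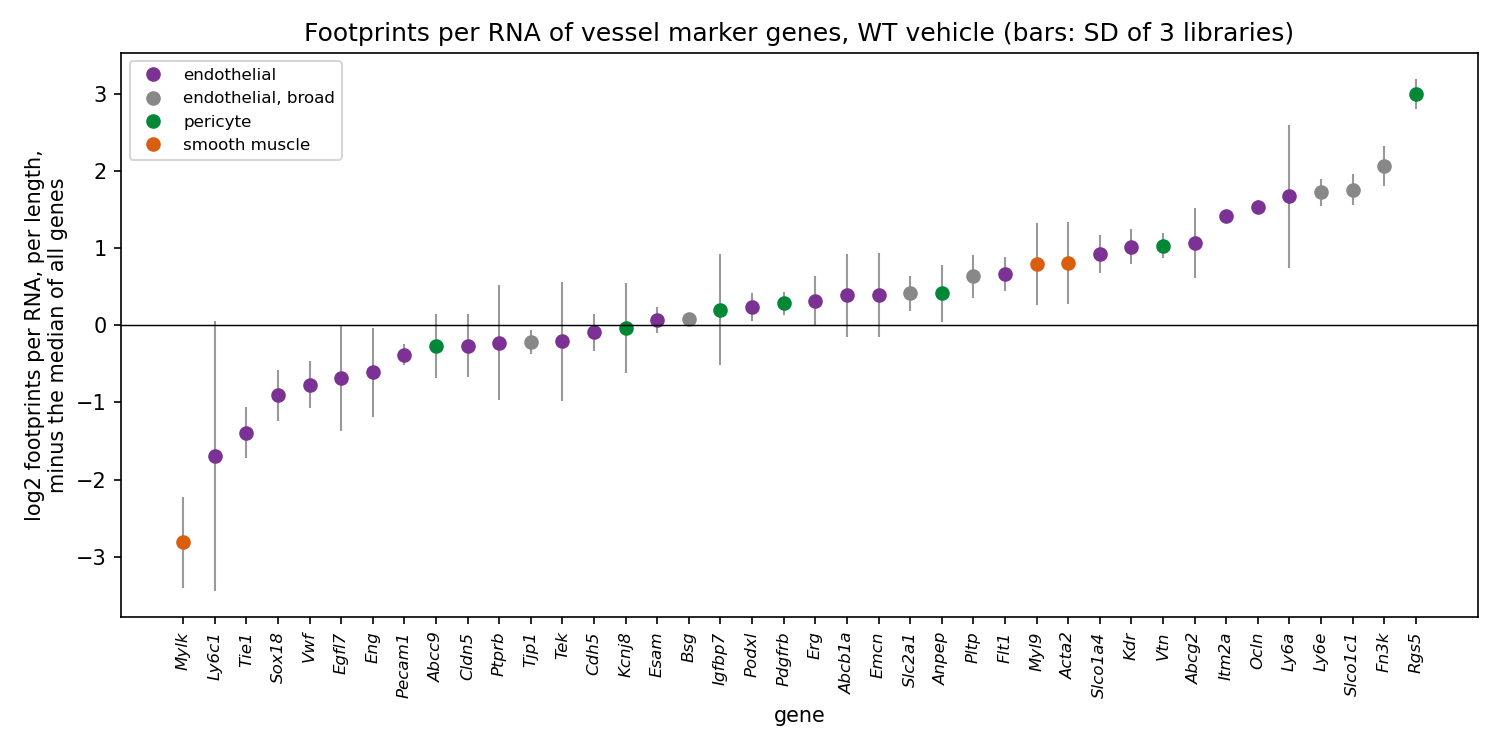
Log2 footprints per RNA of each member (y axis, per length, WT vehicle, minus the median of all genes) in order of size, with bars for the SD of 3 lysates and colours for the sets. Rgs5 stands at the top and Mylk at the bottom, and the members lie on both sides of 0.

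Genes that act with the members were drawn from lists of vessel ligands, receptors, transcription factors and barrier carriers that are not members, 73 tested in RNA and 67 in RPF and in footprints per RNA. None of them was called by edgeR in any of the 15 tests, and DESeq2 called 1, Notch1 in footprints per RNA for DHPG in WT (log2 fold change -0.50, adjusted p = 0.0814), where it gave no adjusted p for 50 of the 67 genes. At an unadjusted p under 0.05, the number in DESeq2 ranged from 1 to 8 genes per test and in edgeR from 2 to 10 genes per test. The largest number came in RPF for Tsc2+/- against WT under vehicle, 4 higher and 6 lower, a share of 14.9% beside 6.55% of all genes, and whether the list stands apart was not tested. Lrp5, a WNT co-receptor, stood out there with footprints at 9.90, 10.04 and 6.47 CPM in WT vehicle and 6.65, 3.98 and 2.65 in Tsc2+/- vehicle (log2 fold change -0.98, SE 0.23, adjusted p = 0.239), while its RNA had a log2 fold change of 0.10 (SE 0.13). Edn1, the vasoconstrictor endothelin, had the smallest p in RNA, in the genotype comparison under DHPG (log2 fold change 0.42, SE 0.11, adjusted p = 0.347). Notch1 had the smallest adjusted p in footprints per RNA, for DHPG in WT (log2 fold change -0.51, SE 0.14, adjusted p = 0.220). Of the other comparisons in RNA, the gene with the smallest p was Mfsd2a, a lipid transporter of the barrier, for genotype in vehicle (log2 fold change 0.21, SE 0.09), Notch1 for DHPG in WT (log2 fold change 0.25, SE 0.08) and Slc38a5, a glutamine carrier, for DHPG in Tsc2+/- (log2 fold change -1.46, SE 0.55). In RPF it was the transferrin receptor gene Tfrc for genotype under DHPG (log2 fold change 0.18, SE 0.06), the mural receptor gene Notch3 for DHPG in WT (log2 fold change -0.68, SE 0.22) and the flow-responsive factor gene Klf2 for DHPG in Tsc2+/- (log2 fold change -0.59, SE 0.21).

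Marker sets of other cells of the slice were followed beside the vessel sets. In RNA, the endothelial set mean had r = 0.45 with that of 10 neuronal genes (9 in RPF), -0.21 with 10 astrocyte genes, 0.07 with 10 oligodendrocyte genes, 0.03 with 10 microglia genes and 0.08 with 10 fibroblast genes over the 12 libraries. In RPF the same values were 0.57, 0.57, 0.19, 0.64 and 0.75. Once group and replicate number were taken out, the RPF values for neurons, astrocytes, microglia and fibroblasts lay between 0.04 and 0.26. The oligodendrocyte value was then -0.25 and the pericyte value 0.65. Over pairs of single genes in RPF, the median r was then 0.12 for endothelial with pericyte genes and also 0.12 for endothelial with astrocyte genes. In RNA the set values were then 0.82 for pericytes, 0.23 for neurons, -0.40 for astrocytes, -0.51 for oligodendrocytes, -0.32 for microglia and -0.19 for fibroblasts. The 10 choroid plexus genes were scarce, summing to 16.4 to 26.0 CPM in RNA, and 2 of them were at 0 in all RNA libraries. Between groups, the fibroblast set mean in RNA did not overlap between the genotypes under DHPG (difference -0.17). The 3 choroid plexus genes in RPF did not overlap between DHPG and vehicle in WT (difference -0.53). Their values were 0.27, 0.09 and 0.33 in WT vehicle and 0.05, -0.93 and -0.03 in WT DHPG. Much of the difference rested on WT DHPG replicate 2. The 9 neuronal genes in footprints per RNA did not overlap between the genotypes in vehicle (difference -0.05). The part of these sets in the vessel values was not tested.

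Red blood cell RNA was scarce in these perfused slices and was lower in Tsc2+/- than in WT vehicle libraries. The 6 erythrocyte genes summed to 20.9 to 27.0 CPM in WT vehicle and 16.4 to 35.2 in WT DHPG, against 2.64 to 16.7 in Tsc2+/- vehicle and 5.04 to 17.7 in Tsc2+/- DHPG, where the genotypes did not overlap in vehicle and did overlap under DHPG. The set mean of the 4 genes tested differed between the genotypes by -1.39 in vehicle and -1.81 under DHPG, without overlap in either. Of the 4 blood genes tested, 1 was called, the beta-globin gene Hbb-bt in Tsc2+/- against WT under DHPG (log2 fold change -4.46, SE 0.86, adjusted p = 0.0453), with RNA at 1.41, 1.15 and 1.72 CPM in WT vehicle and 2.25, 1.61 and 0.473 in WT DHPG, against 0.989, 0 and 0.406 in Tsc2+/- vehicle and 0.132, 0.0480 and 0 in Tsc2+/- DHPG. Reads that fit both Hbb-bt and its near-identical neighbour Hbb-bs may be missing, as only unique alignments were taken. Hbb-bs was not called (log2 fold change -1.26, SE 0.62). The lysate with the least blood RNA was Tsc2+/- vehicle replicate 2, at 2.64 CPM, whose endothelial set mean was -0.02. Tsc2+/- DHPG replicate 2, the lowest in the endothelial set at -0.32, had 5.04 CPM of blood RNA. Tsc2+/- DHPG replicate 1, at 0.07 in the endothelial set, had 5.64 CPM. The part of remaining blood in the vessel values was not tested. In RPF the 6 genes summed to at most 1.67 CPM and 0 passed the filter.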

How the data were processed

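RNA-seq and ribosome profiling were analysed in 24 libraries, 3 per group and assay, with groups taken from the sample labels. The authors trimmed reads with cutadapt, removed rRNA and tRNA reads with Bowtie2, aligned the rest to mm10 with TopHat2, took only unique alignments and marked PCR duplicates by molecular identifiers. RSEM then counted RNA reads over whole transcripts and footprints over coding sequences with both ends trimmed. The authors deposited these expected counts per gene, and the main fits used them as deposited. The members and all gene lists were chosen with earlier results of these data known.

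Counts were scaled by TMM and filtered with filterByExpr (minimum count 10). Each assay was fitted with edgeR 4.0.16 (R 4.3.3) by the robust quasi-likelihood F test across all genes, with group and replicate number, taken to stand for the batch the study corrects for. Footprints per RNA were tested as the assay by group term over all 24 libraries. Adjusted p stands for the Benjamini-Hochberg value across the whole table of an assay, and called means adjusted p under 0.1. Alternatives used DESeq2 1.42.0, sva 3.50.0 (ComBat), other scalings, no filter, no replicate number, a lysate block, halved footprint counts of replicates 2 and 3, and each library left out. Set means used log2 CPM with a prior count of 2. Lengths came from the GRCm38 annotation. The fits were tested on simulated data. Total counts and their ranges stand in the first paragraphs of the report, and counting intervals cover counting error only.

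Named genes were 20 members chosen by their role, any member called, the 2 members with the smallest p in each comparison and assay, and of the partner genes the 1 with the smallest p. Members given only by range, the members at the ends of a level or correlation order, and the blood genes were named after their values were seen.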

Additional observations from a re-analysis of the deposited data

How the results depend on the processing

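The number of members called was 0 in each of the 15 tests under each of the alternatives run. The 30 named log2 fold changes kept their sign in every one. Their adjusted p stayed above 0.1 wherever one was given, the lowest being 0.175 for Abcg2 in footprints per RNA (genotype in vehicle) without WT vehicle replicate 2. DESeq2 gave no adjusted p for 31 of 40 members in RPF (genotype in vehicle, DHPG in WT) and for 34 of 40 in footprints per RNA (DHPG in WT). Those members could not be called there. With the RPF counts of replicates 2 and 3 halved, the median log2 fold change of members in RPF, genotype in vehicle, was -0.0623 against -0.09. Leaving out replicates or libraries, the same median ran from -0.105 to -0.0102, the lowest without Tsc2+/- vehicle replicate 2 and the highest without Tsc2+/- vehicle replicate 3. The median in RPF, DHPG in Tsc2+/-, ran from -0.115 to 0.0417, the highest without Tsc2+/- DHPG replicate 2, and that in footprints per RNA, genotype in DHPG, from 0.0170 to 0.0922. The cause was not tested. The remaining 99 of 100 medians under other settings moved by less than the spread between same-numbered pairs of lysates.

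The replicate block was part of the fit. Deviations from the group means correlated between same-numbered samples at r = 0.0228 to 0.143 in RNA (5 of 18 pairs over 0.1) and 0.0330 to 0.263 in RPF (9 of 18), so not every pair passed 0.1, and for differently numbered samples at -0.126 to 0.0240 and -0.194 to 0.0667. Without the replicate block, 0 members were called, members with an unadjusted p under 0.05 numbered 3, 2, 0, 4 and 1 in RNA, 2, 0, 2, 0 and 0 in RPF and 1, 1, 2, 1 and 0 in footprints per RNA (genotype in vehicle, genotype in DHPG, DHPG in WT, DHPG in Tsc2+/-, interaction), and the member median in RNA, genotype in DHPG, was -0.105.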
